A study of Mus musculus with 20 samples.

Results

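Ear libraries from 4 injection groups fell into a neutrophil-rich set of 9 and a neutrophil-poor set of 11, of 20 in all, and the genes that differed between these sets are described here. The sets were chosen from measured values. For each library the log2 CPM (read count scaled to library size) of S100a8, S100a9, Cxcr2 and Il1b were centred on each gene's mean over the 20 libraries and averaged, and a score above 0 made a library neutrophil-rich. These 4 genes encode the calprotectin subunits, the receptor for neutrophil-attracting CXC chemokines and interleukin-1β, and they are left out of all results below.

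Bulk RNA sequencing measured mouse ear pinnae, the right ear having been injected into the dermis. The fluid was PBS, or PBS with 0.1 µg/µl of 1 cytokine, IL-4, IL-13 or IL-31, in a volume of 10 µl, and each of the 4 groups had 5 libraries. All libraries shared the PBS vehicle and the injection itself, and no uninjected ear was analysed here. The sources used here do not give strain, genotype, age or the time from injection to harvest. They do not say that each library came from its own animal either, and p-values therefore cover the spread between these samples, which may be technical. Markers of the tissue were present in all 20 libraries: the epidermal keratin Krt1 read 8.18 to 13.10 log2 CPM and the cartilage regulator Sox9 5.24 to 7.15.

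Neutrophils are short-lived granulocytes made in the bone marrow that enter injured or infected skin from the blood. They follow CXCR2 ligands, chemokines that resident macrophages, mast cells and keratinocytes release after tissue damage, and once in the tissue they fire an oxidase, release granules and make further chemokines and IL-1β. S100a8 and S100a9 are also switched on in stressed keratinocytes and Il1b in monocytes and macrophages, so a score of these genes is not of neutrophils alone.

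The scores left a wide gap. Scores were 3.19, -1.51, 4.26, -2.25 and 3.75 in PBS libraries 1 to 5, and -2.42, -1.52, -1.93, 2.34 and -2.42 in IL-4 libraries 1 to 5. They were 3.57, -2.82, 2.29, -2.58 and -1.60 in IL-13 libraries 1 to 5, and 1.02, -3.40, 3.10, 1.79 and -2.84 in IL-31 libraries 1 to 5. IL-31 library 1 lay just inside the neutrophil-rich set and PBS library 2 just outside it, with no library within 0.5 of the cut. Each injection group held libraries of both sets: 3 of 5 PBS, 1 of 5 IL-4, 2 of 5 IL-13 and 3 of 5 IL-31 libraries were neutrophil-rich. By number, library 2 was neutrophil-poor in every group, and libraries 1 and 3 were neutrophil-rich in every group but IL-4. Membership of the sets was not shown to differ between injection groups (Fisher-Freeman-Halton exact test, two-sided p = 0.762), a test that 5 libraries per group make weak. Effective library size was 13.9 ± 3.99 M reads (SD, n = 9) in the neutrophil-rich set and 12.0 ± 2.56 M reads (SD, n = 11) in the other. The difference of 1.23 M reads within injection groups was not past the threshold (exact permutation test within groups over 5000 rearrangements, two-sided p = 0.396).

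**Figure D1:**
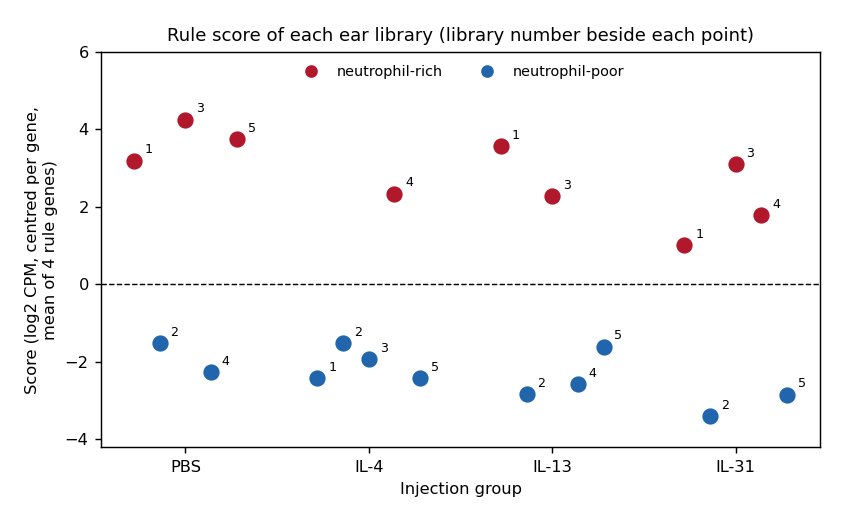
Rule score of each library (y axis, log2 CPM centred per gene and averaged over the 4 rule genes) by injection group (x axis), with the library number beside each point, neutrophil-rich libraries in red and neutrophil-poor ones in blue. Neutrophil-rich libraries lie between 1.02 and 4.26 and the others between -3.40 and -1.51, and every group has both.

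Among the 16457 genes tested, leaving out the 4 rule genes, 493 (3.00%) were higher and 205 (1.25%) lower in the neutrophil-rich libraries. Here and below, higher and lower calls are limma fits with the injection group as a covariate and a Benjamini-Hochberg adjusted p under 0.05. Because the libraries were split by their own RNA, these calls describe the size of a difference against the spread and are no test of the sets, so no p-value is printed for them. The median difference over all genes was -0.01 (log2, neutrophil-rich minus neutrophil-poor), and 261 genes were at least 2-fold higher against 9 at least 2-fold lower. The 16457 had all met a filter on low values, 0 log2 CPM or more in at least 5 libraries. On the neutrophil-poor libraries alone 676 would not have met it, and 99 of these were called higher. For 67 genes (0.407%) every neutrophil-rich library was above every neutrophil-poor one, and for 0 genes (0.00%) every neutrophil-rich library was below. The difference was positive within all 4 injection groups for 469 of the 493 higher genes, against 2139 of all 16457, and negative for 187 of the 205 lower genes, against 2484 of all 16457. With the library number as a block the counts were 194 higher and 14 lower. Without PBS library 2 they were 326 higher and 62 lower. The lower count was 67 without IL-13 library 3, 318 without PBS library 3, and 105 to 133 without any one of PBS library 4, IL-13 library 2 and IL-31 libraries 2, 3, 4 and 5.

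The CXCR2 ligands held some of the widest differences, and the bases before their genes are shown because Cxcl2 and Cxcl3 passed the threshold and their neighbour on chromosome 5, Cxcl1, did not. RefSeq's promoter table (GRCm38.p6, plus strand) held 3 of the 4 ligands in the data, and Cxcl5 is named only. Each line starts 250 bases before the RefSeq start and stops before the first base of the gene in RefSeq or GENCODE M21, whichever comes first. Capitals mark matches on either strand to an NF-κB motif, read as GGG, any 2 bases and TTTCC.
Cxcl1, chr5:90890995-90891240: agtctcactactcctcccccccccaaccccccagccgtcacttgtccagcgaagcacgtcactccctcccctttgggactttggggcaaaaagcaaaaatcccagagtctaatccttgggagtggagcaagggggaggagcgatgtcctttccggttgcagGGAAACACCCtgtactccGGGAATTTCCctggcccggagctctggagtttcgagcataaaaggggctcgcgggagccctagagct
Cxcl2, chr5:90903649-90903870: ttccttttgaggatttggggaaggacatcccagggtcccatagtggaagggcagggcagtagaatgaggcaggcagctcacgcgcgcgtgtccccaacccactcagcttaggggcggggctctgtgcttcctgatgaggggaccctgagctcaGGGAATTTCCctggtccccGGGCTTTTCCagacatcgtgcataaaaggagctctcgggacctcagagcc
Cxcl3, chr5:90785851-90786100: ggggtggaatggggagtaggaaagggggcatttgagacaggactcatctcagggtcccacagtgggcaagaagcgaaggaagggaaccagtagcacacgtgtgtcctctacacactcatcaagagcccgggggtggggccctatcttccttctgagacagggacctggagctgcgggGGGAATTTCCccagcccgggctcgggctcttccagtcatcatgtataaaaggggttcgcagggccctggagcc
Counted in bases before the RefSeq start, Cxcl1 had matches at 89 to 80, on the minus strand, and at 71 to 62. Cxcl2 had matches at 97 to 88 and at 78 to 69, and Cxcl3 had 1 at 73 to 64. The motif was in the same 250 bases of 464 of 32851 promoters in the table (1.41%), of 221 of 11817 tested genes with an entry (1.87%) and of 11 of 382 genes called higher (2.88%). No 2 of these matches overlap, and a match is a description of letters, not a binding site.

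Cxcl2 (ENSMUSG00000058427, chr5:90903871-90905938, GRCm38), a chemokine of macrophages and activated neutrophils, read 5.08 to 9.11 log2 CPM (median 7.50) in the neutrophil-rich libraries and -0.35 to 2.21 (median 0.59) in the neutrophil-poor ones. Every neutrophil-rich library was thus above every other one. The fitted difference was 6.28 ± 0.35 (SE), or 77.4-fold on the deposited scale, and it was 6.49, 6.35, 5.93 and 6.36 within the PBS, IL-4, IL-13 and IL-31 groups. Cxcl3 (ENSMUSG00000029379, chr5:90786103-90789600), its close paralogue, read 1.14 to 5.18 log2 CPM (median 3.89) in the neutrophil-rich libraries and -2.68 to -0.88 (median -2.18) in the neutrophil-poor ones. Its sets did not overlap either, and its difference was 5.33 ± 0.48. Cxcl3 was under 0 log2 CPM in every neutrophil-poor library, so it met the filter on low values only through the neutrophil-rich ones. Near-identical stretches of these paralogues could share reads, and how such reads were counted is not given in the sources used here.

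Cxcl1 and Cxcl5, ligands of the same receptor that keratinocytes and fibroblasts also make, did not pass the threshold. Cxcl1 read -0.34 to 4.11 log2 CPM (median 1.30) in the neutrophil-rich libraries and -2.68 to 2.47 (median 1.03) in the neutrophil-poor ones, and the sets overlapped over most of that range. Its difference was 1.20 ± 0.75, with 1.54 within PBS, -0.04 within IL-4, 1.61 within IL-13 and 1.29 within IL-31. Cxcl5 read -2.68 to 5.80 log2 CPM (median 0.63) in the neutrophil-rich libraries and -1.99 to 1.17 (median -0.74) in the neutrophil-poor ones, with a difference of 0.82 ± 0.75. PBS library 5 had by far the highest Cxcl5 value. IL-4 library 4, which was neutrophil-rich by the rule, had -0.08 log2 CPM of Cxcl1 and sat at the table's floor of -2.68 for Cxcl5. Whether Cxcl2 and Cxcl1 differed unequally was not tested.

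The CC chemokines Ccl3 and Ccl4, which activated neutrophils and macrophages secrete and which draw monocytes, went with Cxcl2. Ccl3 read 2.16 to 5.71 log2 CPM (median 4.02) in the neutrophil-rich libraries and -2.15 to 0.07 (median -0.85) in the neutrophil-poor ones, and the sets did not overlap. Ccl4 read 0.89 to 4.32 log2 CPM (median 2.75) in the neutrophil-rich libraries and -2.68 to -0.05 (median -2.68) in the neutrophil-poor ones. Most neutrophil-poor libraries sat at the floor for Ccl4, so its difference of 5.00 ± 0.42 depends on the offset and no fold is given. Cxcl10, the interferon-induced ligand of CXCR3, had a difference of 2.76 ± 0.46, with overlap. Of 21 tested chemokines other than CXCR2 ligands, these 3 were higher and 1, the lymphatic homing chemokine Ccl21a, was lower (-0.52 ± 0.11). On the neutrophil-poor libraries alone 5 of the 21 would not have passed the filter on low values. All 3 higher ones were among these 5, so the count describes the list only. Over all genes tested 3.00% were higher and 1.25% lower. The median over those 21 was 0.14.

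**Figure D2:**
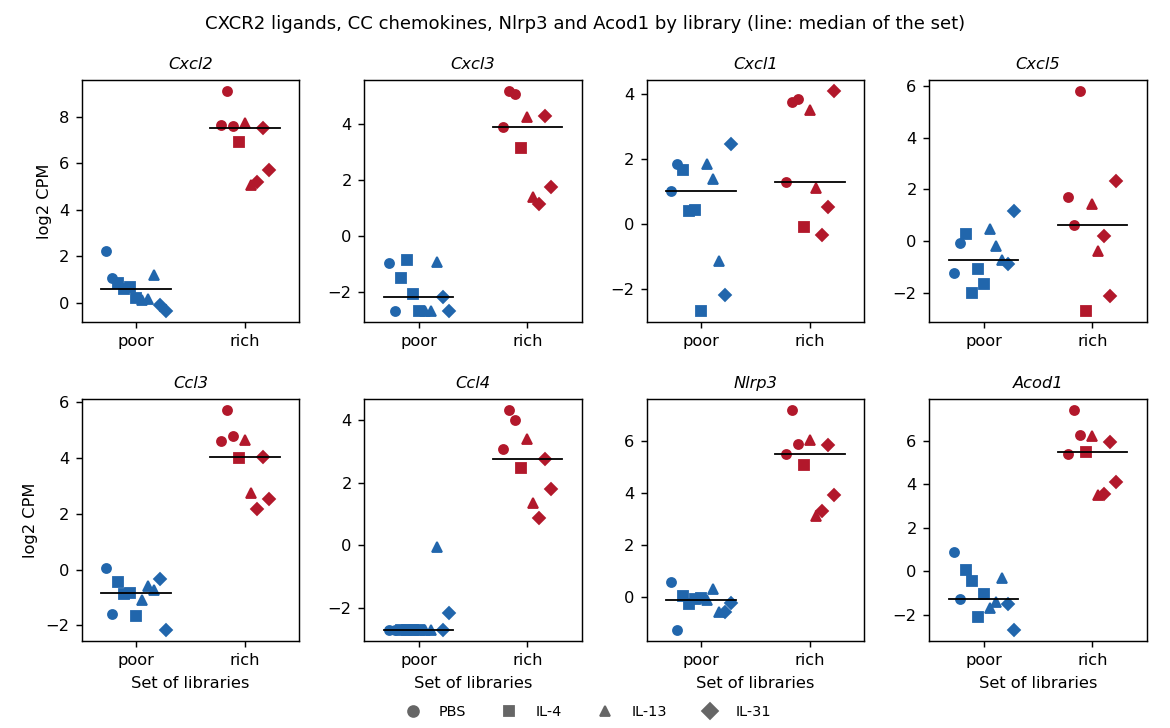
Values of 8 genes (y axes, log2 CPM) in neutrophil-poor and neutrophil-rich libraries (x axes), 1 point per library with its shape giving the injection group and a line at the median of the set. Cxcl2, Cxcl3, Ccl3, Ccl4, Nlrp3 and Acod1 have no overlap between the sets, and Cxcl1 and Cxcl5 overlap.

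Neutrophil receptors and surface proteins outside the rule were set beside it. Of 25 listed, 22 were in the table and 21 passed the filter on low values, 9 of which would not have passed on the neutrophil-poor libraries alone. They entered with the help of the set in which they are high, and all 9 were among the 17 called higher, so the count describes the list and is no check of the name of the sets. None of the 21 was lower, and 3.00% of all genes tested were higher. Trem1, an activating receptor that amplifies the response to microbial products, read 2.61 to 6.34 log2 CPM (median 4.88) in the neutrophil-rich libraries and -2.68 to -0.35 (median -1.65) in the neutrophil-poor ones. Its difference was 5.94 ± 0.40, and it ran from 5.43 within IL-4 to 6.54 within PBS. Csf3r, the receptor for the growth factor that drives neutrophil production, read 2.21 to 5.80 log2 CPM (median 4.39) in the neutrophil-rich libraries and -0.99 to 1.31 (median -0.05) in the neutrophil-poor ones. The sets were separate for both genes.

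Clec4d and Clec4e, C-type lectins that bind mycobacterial glycolipids, had differences of 4.91 ± 0.34 and 4.86 ± 0.47. For both of these too every neutrophil-rich library was above every other one. Ccr1, a receptor for Ccl3, had a difference of 3.99 ± 0.34, and Cd300lf, an inhibitory lipid receptor, of 4.71 ± 0.48. The formyl peptide receptors Fpr1 and Fpr2, which sense bacterial and mitochondrial peptides, had medians of 1.92 and 1.86 log2 CPM in the neutrophil-rich libraries and sat at the floor in most others. Mrgpra2b and Trem3 were also at the floor at the median of the neutrophil-poor set.

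Other receptors in the list had smaller differences. The integrin chains Itgam and Itgb2 of complement receptor 3 had differences of 1.48 ± 0.32 and 1.21 ± 0.25, and the TNF receptor Tnfrsf1b of 1.38 ± 0.20. Fcgr4, an activating IgG receptor, had 2.50 ± 0.40, the lectin Clec5a 1.27 ± 0.27 and the platelet-activating factor receptor Ptafr 1.01 ± 0.25, which did not pass without any one of 4 libraries. Il1r2, the decoy receptor for IL-1, read 6.02 to 8.09 log2 CPM (median 6.92) in the neutrophil-rich libraries and 5.86 to 6.59 (median 6.22) in the neutrophil-poor ones and did not pass. The other 3 that did not pass were Pilra (0.85), Siglece (0.45) and the leukotriene B4 receptor Ltb4r1 (0.16).

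**Figure D3:**
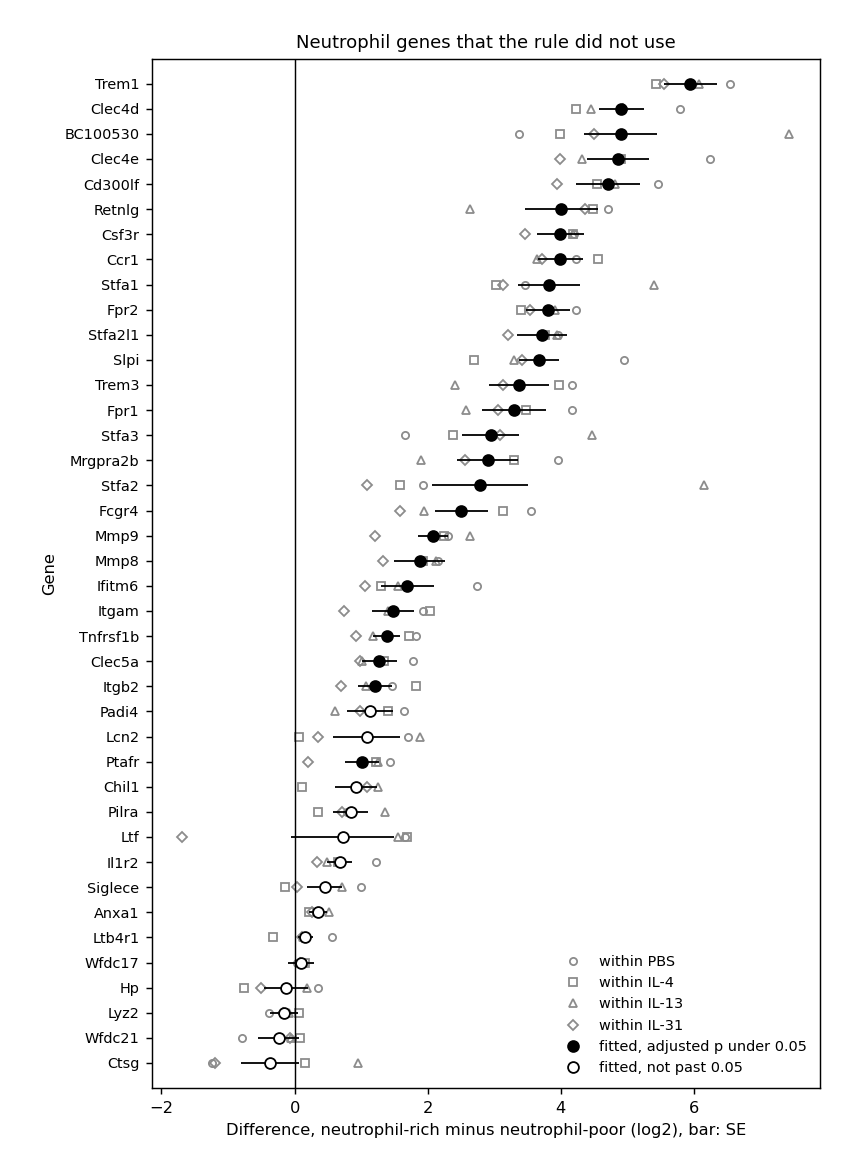
Fitted difference between the sets (x axis, log2, bars show the SE) for the neutrophil receptor and granule genes reported here (y axis), with grey symbols for the difference within each injection group. Filled points passed an adjusted p of 0.05, all of them above 0, and open points did not.

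Granule and secreted neutrophil genes split. Of 20 tested, 10 were higher and 0 lower, against 3.00% and 1.25% of all genes tested. As 6 of the 10 would not have passed the filter on the neutrophil-poor libraries alone, the count describes the list only. BC100530, Stfa1, Stfa2, Stfa2l1 and Stfa3, stefin A cysteine protease inhibitors that lie in 1 cluster of close copies, had differences of 4.90, 3.82, 2.79, 3.72 and 2.95. Reads of these copies may have been split or shared, so single values are uncertain, and Stfa2 did not pass without any one of 8 libraries. Within IL-13 the BC100530 difference was 7.44 and within PBS it was 3.37. BC100530, Stfa2 and Stfa3 were highest in IL-13 library 3, at 8.0, 5.1 and 5.9 log2 CPM. Stfa1 was highest in PBS library 5 and Stfa2l1 in PBS library 3. IL-13 library 3 also had the highest score for stress genes of keratinocytes, as given below. Slpi, an inhibitor of neutrophil elastase that keratinocytes also make, read 3.94 to 6.60 log2 CPM (median 5.18) in the neutrophil-rich libraries and 0.67 to 2.53 (median 1.61) in the neutrophil-poor ones. The sets did not overlap for Slpi.

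Mmp9, gelatinase B of the tertiary granules, read 4.49 to 6.62 log2 CPM (median 5.27) in the neutrophil-rich libraries and 2.26 to 3.85 (median 3.04) in the neutrophil-poor ones, and again the sets did not overlap. Retnlg, a resistin-like secreted protein of mature neutrophils, had a difference of 4.01 ± 0.55, Mmp8, the neutrophil collagenase, 1.88 ± 0.38, and Ifitm6 1.70 ± 0.40. The other 10 did not pass. Ltf, lactoferrin of the specific granules, read -2.68 to 2.04 log2 CPM (median 0.53) in the neutrophil-rich libraries and -2.68 to 3.16 (median -1.07) in the neutrophil-poor ones, and its highest value was in the neutrophil-poor IL-13 library 4. Lcn2, an iron-scavenging granule protein that keratinocytes and hepatocytes also make, differed by 1.08 ± 0.50 and Padi4, which citrullinates histones in neutrophil traps, by 1.14 ± 0.34. Ctsg, cathepsin G of neutrophil and mast cell granules, was at -0.38, and Lyz2, lysozyme of all myeloid cells, at -0.16. Chil1, Anxa1, Wfdc17, Wfdc21 and Hp lay between -0.24 and 0.92. Mpo, Elane and Prtn3, made by promyelocytes in marrow, were not analysed here.

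The phagocyte NADPH oxidase, which makes superoxide, differed little in size. Of 7 tested genes 3 were higher, against 3.00% of all genes tested, and the list's median was 0.40. Among the 3 were the cytosolic subunit Ncf4 (0.68 ± 0.13) and the small GTPase Rac2 (0.70 ± 0.18). The count was 0 with the library number as a block and 1 without the PBS group. Rac2 did not pass without any one of 6 libraries. Ncf1 differed by 0.40 ± 0.16 and did not pass.

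IL-13 library 3 stood apart within the neutrophil-rich set. Its rule score was 2.29, but its neutrophil receptor score, the mean centred log2 CPM over the 22 receptors in the table, was -0.10. The other 8 neutrophil-rich libraries had receptor scores of 0.33 to 2.88 and the neutrophil-poor ones -1.82 to -0.55. A score of 7 neutrophil genes not in the rule was 0.26 in that library, the lowest of the set, although it gave all 20 libraries the same set. The granule list's score in IL-13 library 3 was 1.17, within a range of 0.04 to 2.23 over the neutrophil-rich set. The library's score for stress genes of keratinocytes was 3.45, the highest of all libraries. Without it the higher calls numbered 414 and the lower ones 67.

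Several genes of the IL-1 pathway and of myeloid cytokines were higher. Nlrp3, the sensor whose inflammasome cuts pro-IL-1β, read 3.12 to 7.20 log2 CPM (median 5.53) in the neutrophil-rich libraries and -1.26 to 0.58 (median -0.10) in the neutrophil-poor ones. The difference was 5.31 ± 0.42, 39.7-fold on the deposited scale, with no overlap. Il1rn, the IL-1 receptor antagonist, had a difference of 1.02 ± 0.16, Il18rap, a chain of the IL-18 receptor, 2.45 ± 0.31, and the alarmin Il1a 0.87 ± 0.24. These were the 4 of 14 in the IL-1 and IL-36 list that passed, where 3.00% of all genes tested were higher. In that list 7 passed without PBS library 3, and Il1a did not pass without any one of 14 libraries. On the neutrophil-poor libraries alone 1 of the 14 genes, also called higher, would not have passed the filter. Osm, oncostatin M, a cytokine of activated neutrophils and macrophages, read 1.58 to 5.53 log2 CPM (median 3.55) in the neutrophil-rich libraries and -1.99 to 0.58 (median -0.76) in the neutrophil-poor ones. Tnf, an inflammatory cytokine of myeloid cells, read 1.51 to 4.53 log2 CPM (median 2.91) in the neutrophil-rich libraries and -0.19 to 1.31 (median 0.56) in the neutrophil-poor ones. Csf3, the neutrophil growth factor G-CSF, had a median of 0.60 log2 CPM against the floor. The neutrophil-rich values lay above all others for Osm, Tnf and Csf3, which were 3 of 6 cytokines tested, against 0.407% of all genes tested. On the neutrophil-poor libraries alone 2 of the 6, both called higher, would not have passed the filter. Csf1 (0.36 ± 0.12) did not pass.

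Acod1 (ENSMUSG00000022126, chr14:103046977-103056573), which makes itaconate in activated myeloid cells, was low in most neutrophil-poor libraries. It read 3.50 to 7.40 log2 CPM (median 5.48) in the neutrophil-rich libraries and -2.68 to 0.89 (median -1.26) in the neutrophil-poor ones. The fitted difference was 6.38 ± 0.44, which depends on the offset, so no fold is given. It ran from 5.98 within IL-13 to 6.63 within IL-31. Slfn4, a Schlafen gene of activated myeloid cells, read 4.16 to 8.96 log2 CPM (median 6.47) in the neutrophil-rich libraries and 0.04 to 1.87 (median 1.17) in the neutrophil-poor ones. Neither gene overlapped between the sets.

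Of 16 pattern recognition receptors 6 were higher and 0 lower, with a median of 0.62, against 3.00% higher and 1.25% lower over all genes tested. The filter would have removed 2 of the 16 on the neutrophil-poor libraries alone, 1 of them called higher. Cd14, the co-receptor for lipopolysaccharide, read 5.12 to 8.89 log2 CPM (median 7.52) in the neutrophil-rich libraries and 2.24 to 3.34 (median 2.67) in the neutrophil-poor ones. Clec7a, the β-glucan receptor dectin-1, differed by 2.93 ± 0.30, Tlr6 by 2.36 ± 0.37 and Tlr2 by 1.43 ± 0.27. Of 18 NF-κB feedback and target genes 7 were higher, with a median of 0.34. That count was 3 without PBS library 4 and 4 without any one of PBS library 2, IL-13 libraries 1, 2 and 5 and IL-31 libraries 4 and 5. Tnfaip2, a gene induced by TNF, read 4.63 to 6.40 log2 CPM (median 5.22) in the neutrophil-rich libraries and 3.53 to 4.57 (median 3.76) in the neutrophil-poor ones, with no overlap. Traf1, an adaptor of TNF receptors, Socs3, a brake on cytokine signalling, and Nfkbiz, an atypical IκB protein, differed by 1.30 ± 0.22, 0.96 ± 0.18 and 0.44 ± 0.11. Ptgs2, the inducible cyclooxygenase of prostaglandin synthesis, read 3.60 to 6.77 log2 CPM (median 5.53) in the neutrophil-rich libraries and 1.37 to 3.08 (median 1.94) in the neutrophil-poor ones. Its values did not overlap, and Pla2g7, the platelet-activating factor hydrolase, differed by 0.84 ± 0.19. These were the 2 of 14 lipid mediator genes that passed, where 3.00% of all genes tested were higher.

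Interferon-stimulated genes were next: 27 of 34 tested were higher and 0 lower, with a median of 1.41, against 3.00% higher over all genes tested. On the neutrophil-poor libraries alone 6 of the 34, of which 5 were called higher, would not have passed the filter. Rsad2, the antiviral enzyme viperin, read 2.24 to 6.44 log2 CPM (median 4.31) in the neutrophil-rich libraries and 0.04 to 2.24 (median 1.11) in the neutrophil-poor ones. The sets met at 2.24, where the neutrophil-rich IL-31 library 4 and the neutrophil-poor PBS library 4 had almost the same value. Oas3, a sensor of double-stranded RNA, differed by 3.21 ± 0.32, Ifit1, which binds viral RNA, by 2.84 ± 0.29 and Zbp1, a sensor of Z-form nucleic acid, by 2.75 ± 0.29. For these 3 the sets did not overlap. The list's score was 2.10 in PBS library 5 and -0.24 in IL-31 library 4, the extremes of the neutrophil-rich set, and -1.17 to -0.16 in the other set. The score of IL-31 library 4 thus lay among the neutrophil-poor libraries.

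Inflammatory monocyte genes followed, with 7 of 10 tested higher and a median of 1.55, but 4 without PBS library 2. On the neutrophil-poor libraries alone 2 of the 10, both called higher, would not have passed the filter. Over all genes tested 3.00% were higher and 1.25% lower. Ly6c2, the surface antigen of classical monocytes, read 0.47 to 4.45 log2 CPM (median 2.10) in the neutrophil-rich libraries and -0.88 to 0.73 (median -0.32) in the neutrophil-poor ones. Ms4a4c differed by 2.88 ± 0.46, the clotting factor gene F10 by 2.74 ± 0.45 and Cd300ld by 1.76 ± 0.29. Resident macrophage genes did not follow: of 17 tested 1 was higher, the IgG receptor Fcgr1 (2.34 ± 0.40), 1 was lower, Cbr2 (-0.31 ± 0.08), and the median was -0.14. The dendritic cell list had 2 of 16 higher, the actin bundler Fscn1 of mature dendritic cells (0.95 ± 0.22) and the integrin Itgax, or CD11c (0.64 ± 0.15), with a median of -0.18, and Itgax did not pass without IL-4 library 4. The call for Cbr2 was lost without any one of 8 libraries. No member of 15 T, NK and innate lymphoid cell genes passed, and their median was -0.02. In bulk tissue, fewer cells of a type and less RNA per cell cannot be told apart.

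Hdc (ENSMUSG00000027360, chr2:126593667-126619299), the enzyme that makes histamine, read 4.36 to 8.30 log2 CPM (median 6.66) in the neutrophil-rich libraries and 1.71 to 2.96 (median 2.35) in the neutrophil-poor ones. The sets did not overlap, and the difference was 3.80 ± 0.34, with 4.36 within PBS and 3.26 within IL-31. Hdc stood in the mast cell list, but it is also known in activated neutrophils and basophils, and the fitted differences of the other 9 tested mast cell genes were negative. Of these, 4 were lower, against 1.25% of all genes tested. Tpsb2, the mast cell tryptase (ENSMUSG00000033825, chr17:25366305-25369098), read 3.33 to 4.13 log2 CPM (median 3.80) in the neutrophil-rich libraries and 3.91 to 5.57 (median 4.56) in the neutrophil-poor ones. Its difference was -0.80 ± 0.14. Mcpt4 and Cma1 are mast cell chymases, and Mrgprb1 is a G-protein-coupled receptor. Mcpt4 read 4.98 to 5.93 log2 CPM (median 5.65) in the neutrophil-rich libraries and 5.39 to 7.13 (median 5.85) in the neutrophil-poor ones, and Mrgprb1 differed by -0.85 ± 0.20. Without PBS library 2, the highest for Tpsb2 and Mcpt4, 1 of the 4 lower calls was left, and 2 were left without PBS library 4 or IL-13 library 3. With the library number as a block 0 were left. With PBS library 2 included, the Tpsb2 difference was -1.49 within PBS, and it was -0.58, -0.46 and -0.60 within the cytokine groups.

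**Figure D4:**
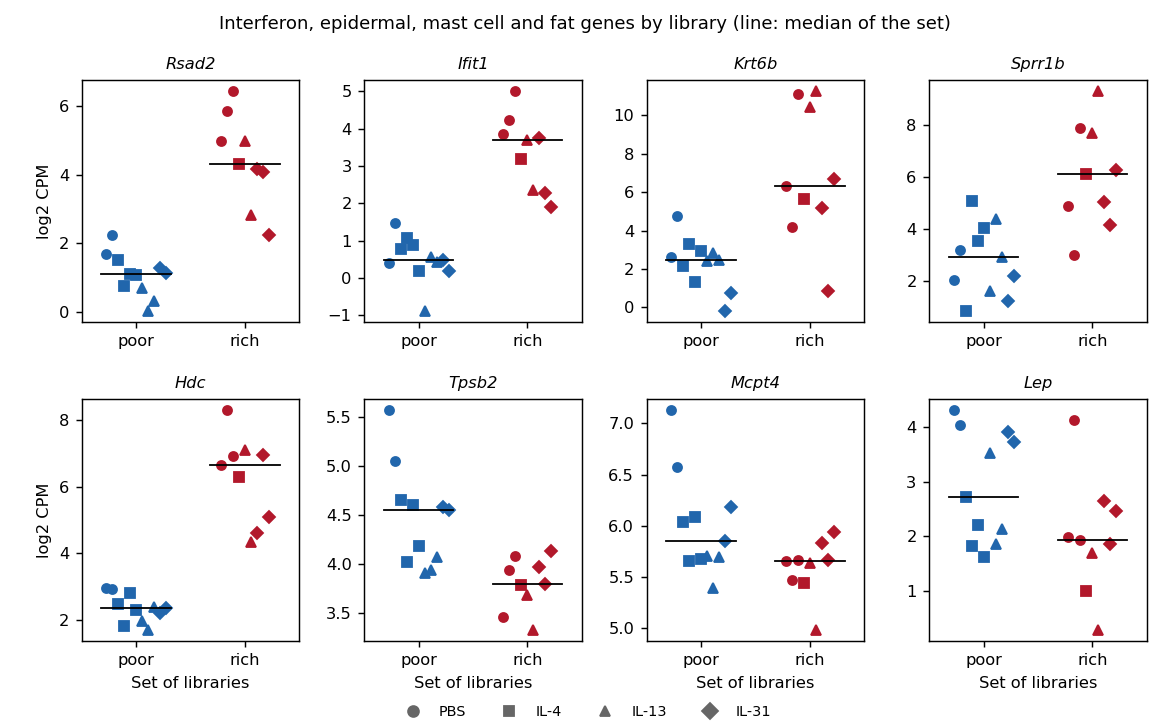
Values of 8 genes (y axes, log2 CPM) in neutrophil-poor and neutrophil-rich libraries (x axes), 1 point per library with its shape giving the injection group and a line at the median of the set. Ifit1 and Hdc separate the sets. Krt6b and Sprr1b are high in some neutrophil-rich libraries and not in others, and Tpsb2, Mcpt4 and Lep overlap with lower medians.

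Stress genes of keratinocytes, switched on in wounded or inflamed epidermis, varied widely among the neutrophil-rich libraries. Of 24 tested, 15 were higher and 0 lower, with a median of 2.24 and no gene free of overlap. On the neutrophil-poor libraries alone, 8 of the 24 would not have passed the filter on low values. Of these 8, 6 were among the 15 higher. The count therefore describes the list, and 3.00% of all genes tested were higher. Krt6b (ENSMUSG00000023041, chr15:101676023-101680287), a keratin of wounded and hyperproliferating epidermis, read 0.85 to 11.26 log2 CPM (median 6.31) in the neutrophil-rich libraries and -0.18 to 4.78 (median 2.46) in the neutrophil-poor ones. The difference was 4.88 ± 0.90, but 8.29 within IL-13 against 3.24 within IL-4. Sprr1b, a cornified envelope precursor, read 3.00 to 9.30 log2 CPM (median 6.12) in the neutrophil-rich libraries and 0.85 to 5.06 (median 2.91) in the neutrophil-poor ones. Sprr2d, Sprr2h and Lce3d, of the same epidermal differentiation complex, differed by 3.21 ± 0.50, 2.90 ± 0.50 and 3.38 ± 0.56. Paralogues in this complex are close copies, so reads may be shared among them.

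The score of that list was 3.45 and 1.97 in IL-13 libraries 3 and 1, 2.80 in PBS library 5 and 1.64 in IL-31 library 4. It was only -0.55 in PBS library 3 and -0.72 in IL-31 library 3, values inside the neutrophil-poor range of -1.49 to -0.05, although PBS library 3 had the highest rule score of all. The count of higher genes was 11 without IL-13 library 3. The cornifying epidermis list, of normal barrier genes, had 4 of 31 higher, against 3.00% of all genes tested. Among the 4 were Flg, filaggrin (1.06 ± 0.23), Rptn (2.32 ± 0.62) and Krt1 (1.38 ± 0.36). The count was 0 with the library number as a block, with the skeletal muscle list score as a covariate or without an injection term. Of the 4, 1 was left without any one of PBS library 2, the 5 IL-13 libraries and IL-31 library 2. Without any one of PBS library 5, IL-4 library 4 and IL-31 library 3, 2 were left. The cornifying epidermis score was -1.23, -1.83 and -2.14 in PBS libraries 1, 2 and 3, below every other library, of which the lowest read -0.40. With the score of that list as a covariate 556 genes were higher and 294 lower over all genes tested, and the list itself had 5 higher and 5 lower.

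**Figure D5:**
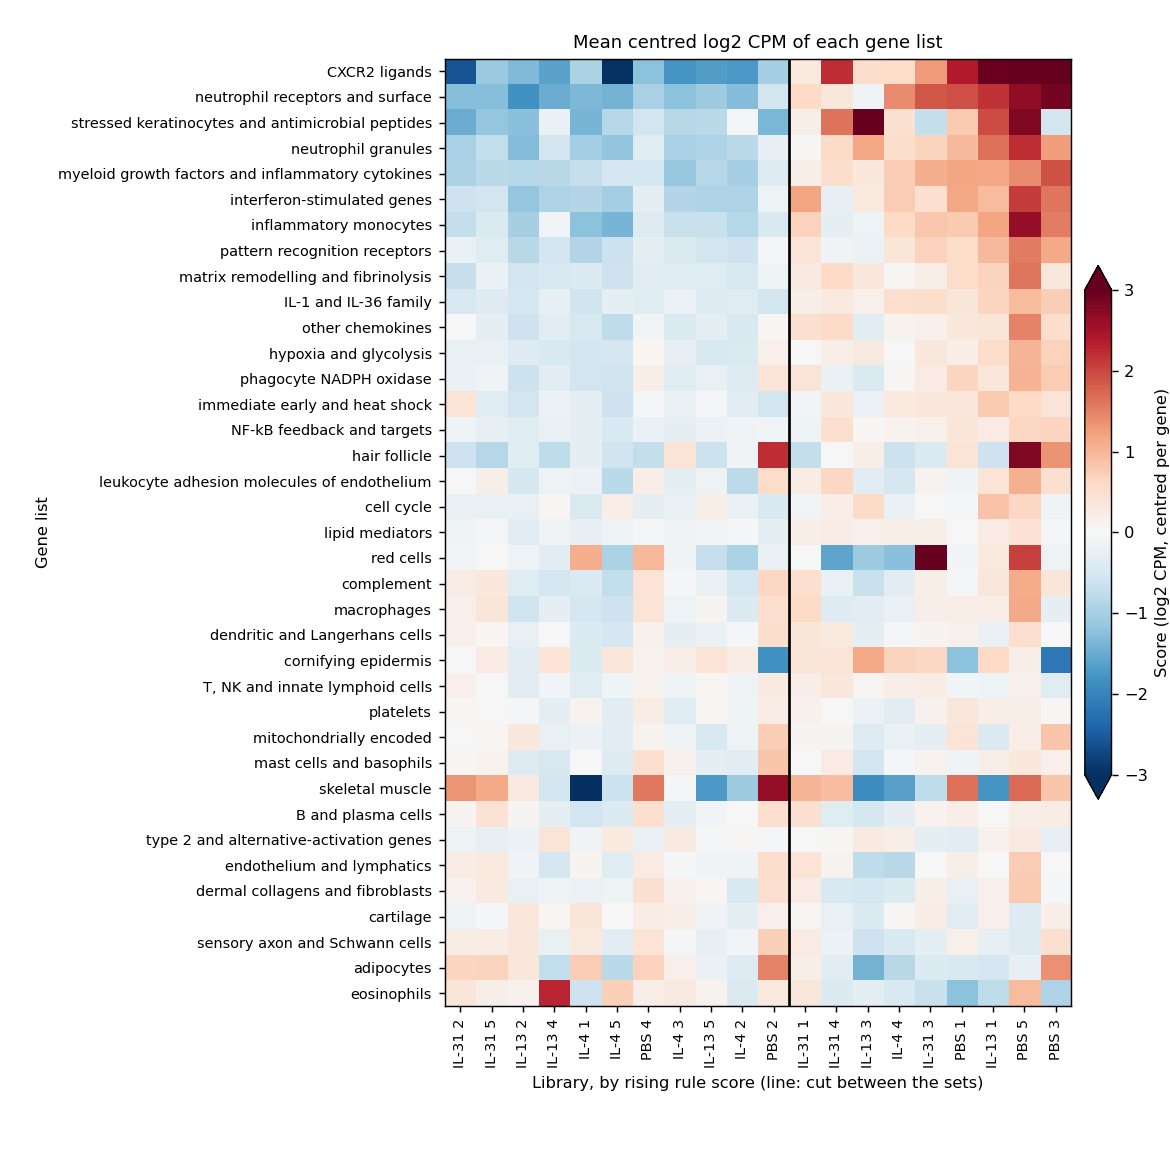
Score of each of 37 gene lists (rows, mean centred log2 CPM, colour scale from -3 to 3 with stronger values clipped) in each library (columns, by rising rule score, black line at the cut). Neutrophil, CXCR2 ligand and interferon rows turn from blue to red at the cut in most libraries, while muscle, red cell, hair follicle and cornifying epidermis rows vary within both sets.

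Matrix remodelling genes held 2 of the larger differences. Mmp13, an interstitial collagenase, read 2.70 to 5.14 log2 CPM (median 3.92) in the neutrophil-rich libraries and -1.76 to 1.29 (median -0.85) in the neutrophil-poor ones, and Plaur, the urokinase receptor on migrating leukocytes and keratinocytes, read 3.81 to 6.83 log2 CPM (median 5.61) in the neutrophil-rich libraries and 1.67 to 2.35 (median 1.90) in the neutrophil-poor ones. For both the sets did not overlap. Tnc, tenascin C of wound matrix, differed by 1.04 ± 0.21. These 3 were among 6 of 20 in that list that were higher, with a median of 0.31. Without PBS library 2 the count was 3. The filter would have removed 4 of the 20 on the neutrophil-poor libraries alone, 2 of them called higher. Of the hypoxia and glycolysis list 3 of 16 were higher: Slc2a3, a glucose transporter of leukocytes (2.27 ± 0.31), Hk3, a hexokinase of myeloid cells (1.85 ± 0.30), and Slc16a3, a lactate exporter (1.41 ± 0.28), and 5 were higher without PBS library 3. Immediate early genes had 4 of 21 higher, among them the nuclear receptor Nr4a3 (2.52 ± 0.31) and the AP-1 subunit Junb (0.92 ± 0.18). The complement list had 1 of 13, the C5a receptor C5ar1 (1.78 ± 0.44), which did not pass without any one of 4 libraries. Over all genes tested 3.00% were higher.

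Vessel, dermal and red cell lists had few calls. Over all genes tested 3.00% were higher and 1.25% lower, so counts of 0 or 1 in lists this small are not read as results about the tissue. None of the 6 leukocyte adhesion genes of endothelium passed: Sele, E-selectin, read -1.04 to 2.00 log2 CPM (median 0.45) in the neutrophil-rich libraries and -1.65 to 0.96 (median -0.10) in the neutrophil-poor ones. Selp, P-selectin, differed by 0.34 ± 0.25 and Icam1 by 0.34 ± 0.14. Of 19 endothelial genes 1 was lower, von Willebrand factor Vwf (-0.40 ± 0.11), and of 16 dermal collagen and fibroblast genes 2 were lower, decorin, Dcn (-0.37 ± 0.10), and dermatopontin, Dpt (-0.67 ± 0.15). Vwf did not pass without any one of 11 libraries and Dcn without any one of 14. The 5 red cell genes had a median of -0.04 and none passed, although their score reached 3.15 in IL-31 library 3 and 2.05 in PBS library 5 against at most 1.08 elsewhere.

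Type 2 genes, the targets of the injected IL-4 and IL-13, had 1 of 14 higher and 1 lower, against 3.00% and 1.25% of all genes tested. Il4ra, the receptor chain that both cytokines share, read 4.76 to 6.86 log2 CPM (median 5.25) in the neutrophil-rich libraries and 4.13 to 4.75 (median 4.48) in the neutrophil-poor ones. The sets did not overlap, but the difference of 0.89 ± 0.21 did not pass without PBS library 2. Mgl2, a lectin of alternatively activated macrophages and dermal dendritic cells, had a difference of -0.86 ± 0.18 and passed in every fit that left out 1 library, but not with the muscle score as a covariate or with the replicate number as a block, and the same held for Il4ra under both. Arg1, arginase of alternatively activated macrophages, differed by 0.72 ± 0.22 and did not pass.

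Lower genes were fewer and smaller. Cyp2e1, a cytochrome P450 of fat and liver, read 0.02 to 3.17 log2 CPM (median 1.40) in the neutrophil-rich libraries and 0.84 to 4.24 (median 3.13) in the neutrophil-poor ones. The difference was -1.52 ± 0.32, or 0.35-fold, the largest among genes called lower once predicted genes are left out. Lep, leptin of adipocytes, read 0.30 to 4.13 log2 CPM (median 1.94) in the neutrophil-rich libraries and 1.63 to 4.30 (median 2.71) in the neutrophil-poor ones. It was the 1 lower gene of 10 in the adipocyte list, against 1.25% of all genes tested. The list's median was -0.88, and 5 of the 10 were lower without PBS library 3. Retn, resistin of adipocytes, differed by -1.29 ± 0.36, the complement gene C7 by -1.41 ± 0.37, Nos1, neuronal nitric oxide synthase, by -1.26 ± 0.34 and the methyltransferase Inmt by -1.06 ± 0.27. Ankef1, Vat1l, Gpr37l1 and Col6a6 completed the 10 largest, from -1.33 to -0.95. All 10 overlapped between the sets. C7, Ankef1, Retn, Nos1 and Inmt each lost their call without any one of 7 to 15 libraries.

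Of 12 nerve genes, from sensory axons and Schwann cells, 4 were lower, against 1.25% of all genes tested, with a list median of -0.33. The myelin genes Mbp (-0.53 ± 0.12) and Prx (-0.75 ± 0.17) and the neurotrophin receptor Ngfr (-0.37 ± 0.10) were among these. Ngfr did not pass without any one of 16 libraries. Of the 4, 1 was left without PBS library 2 and 2 without IL-4 library 4 or IL-13 library 3. With the library number as a block 1 was lower in that list, and without an injection term 0 were. Skeletal muscle genes, from the ear's small muscles, were negative in the fit for 26 of 26, with a median of -0.72, and none passed. Pvalb and Atp2a1 of fast fibres differed by -1.63 ± 0.64 and -0.98 ± 0.38. Their list score nevertheless had a higher median in the neutrophil-rich libraries (0.83) than in the others (-0.04). The PBS group, with 3 of its 5 libraries neutrophil-rich, had muscle scores of 0.83 to 2.63. With that score as a covariate 269 genes were higher and 41 lower over all genes tested. Of the genes the naming rule picked, 20 of 91 higher ones and 15 of 23 lower ones then did not pass, among them Itgam, Itgb2, Mmp8, Mcpt4, Mgl2, Retn, C7, Nos1 and Prx. By list, 1 nerve gene and 1 mast cell gene were then lower, 0 dermal collagen and fibroblast genes were lower, and 0 cornifying epidermis and 0 cell cycle genes were higher. Inflammatory monocyte genes then had 4 higher and NF-κB targets 3. Without an injection term 20 of the 23 lower ones did not pass. The part of fat and nerve content in the lower calls was not tested.

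The injection contrasts were refitted with the set as a covariate, since the labels of injection did not enter the rule. Against PBS, 3315 genes passed an adjusted p of 0.05 for IL-4 (9.12% of tested genes higher and 11.0% lower), 3919 for IL-13 (11.8% higher and 12.0% lower) and 1374 for IL-31 (6.19% higher and 2.16% lower) in limma. With the skeletal muscle score as a covariate the counts were 0, 0 and 2, and with the cornifying epidermis score 1387, 655 and 0. Muscle scores were 0.83 to 2.63 in the PBS libraries, -3.01 to -0.04 in IL-4, -1.90 to 0.28 in IL-13 and -0.75 to 1.32 in IL-31, so the PBS range overlaps neither the IL-4 nor the IL-13 range, and for those contrasts muscle content and injection cannot be told apart. Without the set term the counts were 2938, 3250 and 1050, of which 2677, 3216 and 1050 passed in both fits. All 3 contrasts share the PBS libraries. With 1 library left out the counts ran from 1488 to 4117 for IL-4, from 2230 to 5297 for IL-13 and from 1 to 3286 for IL-31. The lowest counts for IL-4 and IL-13 were those without PBS library 2, and IL-4 had 2078 without IL-4 library 4 and IL-13 had 2314 without IL-13 library 3. For IL-31 the count was 2 without PBS library 2, 2 without IL-31 library 3 and 1 without IL-31 library 5. It was 311, 233, 2482 and 3286 without PBS libraries 1, 3, 4 and 5, and 835 and 586 without IL-31 libraries 2 and 4.

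Whether the set difference varied with the injection was tested by the interaction of set and injection group. No gene passed an adjusted p of 0.05 (limma moderated F, smallest adjusted p = 0.84), and 357 genes (2.17%) had an unadjusted p under 0.05. The IL-4 group had 1 neutrophil-rich library, so its set difference rests on that library.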

How the data were processed

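Total RNA libraries were made from injected ear pinnae with a NEBNext Ultra II kit, per the labels' protocols. The values are log2 CPM that the authors deposited as a single table of 16669 Ensembl identifiers; the submitters' processing notes name edgeR and the build GRCm38. As the aligner, counter, annotation release and use of strand were not given in the sources used here, overlapping and antisense genes cannot be told apart from their partners. GENCODE M21 (GRCm38) gave symbols for 16652 identifiers. Every column matched 1 library by its name, no 2 libraries held the same values, and the labels name no batch.

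The lowest deposited log2 value, -2.684, corresponds to an added 0.1556 CPM. Differences are therefore on a log2(CPM + offset) scale that shrinks those of weakly expressed genes. Between 78.3 and 87.2% of a library's low values were whole multiples of 1 read within 0.02 reads. That step gave effective library sizes of 6.10 to 23.73 M reads (median 12.96 M), at which 3 reads are 0.126 to 0.491 CPM. The other low values were not whole, so no count test was run.

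Genes at 0 log2 CPM or more in at least 5 libraries were fitted (16461, with 208 removed) by limma 3.58.1 in R 4.3.3 (lmFit, and eBayes with a trend) with set and injection group as terms and 1 spread per gene over all 20 libraries. Standard errors are limma's, and calls are at a Benjamini-Hochberg adjusted p under 0.05 over all tested genes. Counts leave out the 4 rule genes. List scores are means of centred log2 CPM. The fitting script was tested on simulated data. The rule, the lists and the tests were chosen with earlier results of these data known. Named genes were all tested members of the 2 neutrophil lists and the CXCR2 ligand list, up to 4 members of each other list by smallest p, and the 10 largest called differences in each direction without predicted genes or pseudogenes; Cma1 was named after its call was seen. A few genes that the rule names are counted in their lists but not reported here. Deviations of same-numbered libraries of different groups had r from -0.24 to 0.49 (mean 0.03, 10 of 30 pairs over 0.1), and the numbers were not taken as pairs. Set membership nevertheless went partly with the library number, so set and number cannot be fully told apart. Whether same-numbered libraries shared a handling step was not tested. Alternatives covered the offset, the filters, quantile normalization, the set definition, the covariates and each library in turn.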

Additional observations from a re-analysis of the deposited data

Results flagged for a closer look

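Within the 9 neutrophil-rich libraries, 224 results were examined for a library far from the rest by Dixon's criterion, and 10 stood out, where chance gives about 1 in 20. The number flagged was no higher than that share, so the libraries below are listed as observations only. The neutrophil-poor set, with 11 libraries, was not examined in this way.

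PBS library 5 was furthest above the others for 6 of these. Its Il7r, the IL-7 receptor, read 4.08 log2 CPM against 2.79 in the next library. Its Il4ra read 6.86 against 5.71. The hair follicle genes Krt27 and Tchh read 4.85 against 1.55 and 7.02 against 4.59. The list scores of chemokines other than CXCR2 ligands and of matrix remodelling were 1.49 against 0.57 and 1.60 against 0.67.

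PBS library 3 was high for 3 genes. The NF-κB target Tnfaip2 read 6.40 against 5.52, the integrin Itgax 4.22 against 3.58 and the lipid droplet gene Plin1 5.86 against 4.02. IL-13 library 3 had the lowest mast cell list score, -0.58, against -0.13 in the next library.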

How the results depend on the processing

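The counts of 493 higher and 205 lower genes kept within 1.5 times under log2(CPM + 1), no filter, a stricter filter, quantile normalization, the score as a number, depth as a covariate and the epidermis score as a covariate (556 and 294). All 20 libraries kept their set when 7 other neutrophil genes or centring within injection groups made the score, and none lay near the cut, so those alternatives equal the values reported. With the muscle score as a covariate the counts were 269 and 41, without an injection term 68 were lower, and with 1 library left out they ran from 326 to 627 and from 62 to 318. Chosen after seeing the data, leaving out PBS libraries 1, 2 and 3 gave 907 and 410, and leaving out the PBS group 96 lower. Of the 187 named genes 114 were called and 85 kept their call without any one library; no named gene changed sign while called.

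With the replicate number as a block, the counts were 194 higher and 14 lower, and 3 of 20 libraries correlated best with their own number. The block left the 3 injection counts within 1.5 times.

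In the order IL-4, IL-13, IL-31, the injection counts were 0, 0 and 2 with the muscle score, 1387, 655 and 0 with the epidermis score, and 1512, 1030 and 1 without PBS libraries 1, 2 and 3. With 1 library left out they ran from 1488 to 4117, from 2230 to 5297 and from 1 to 3286. The causes were not tested. At these depths values near 0.491 CPM rest on few reads.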
